A study of Mus musculus with 8 samples.

Results

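The collagen genes of the mouse were followed in forepaw skin of mice labelled Krt16 null, which carry a disrupted gene for keratin 16. Members were the array probe sets whose annotated symbol has the form of a collagen chain gene (Col, a number, a, a number), without Col17a1 and Col7a1, and a probe set that lists several symbols counted only if all of them fit. This gave 41 genes, each with 1 probe set, of 30701 genes tested. The probe set of Col6a4 also lists Dvwa and was left out. No probe set listed several collagen symbols.

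RNA was measured on 8 single-colour arrays, 1 per mouse. The 4 Krt16 null mice (2 males, 2 females) carried an allele made in embryonic stem cells in which LacZ, a bacterial gene, takes the place of the Krt16 coding sequence, and their paw skin was labelled as lesion. Paw skin of the 4 wild-type (WT) littermates (2 males, 2 females) was labelled as normal. All mice were C57Bl/6, aged 8 weeks, so an effect of genotype cannot be told apart from one of the lesion, and each difference below is one between lesional null skin and normal WT skin.

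Collagens are the main structural proteins of the extracellular matrix. Their chains, called alpha chains, carry long stretches with glycine at regular steps and wind around each other into a helix. Fibrillar collagens give the dermis its tensile strength, type IV collagens build the sheet of the basement membrane under the epidermis and around vessels, nerves and muscle fibres, and fibril-associated, beaded-filament and transmembrane collagens link these structures to each other and to cells.

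Signals are given as log2 RMA values, so that equal steps are equal ratios; levels are not compared between genes. Differences are null minus WT from a limma fit across all genes with sex as a covariate, with their standard error (SE), and the threshold for a call was 0.05 after Benjamini-Hochberg adjustment over all genes. Array medians were 4.04 to 4.09 and negative control medians 4.26 to 4.46; arrays have no read depth, and their number limits the precision. Krt16, the targeted gene, lay at 6.83 to 6.99 in null skin and at 7.05 to 9.66 in WT skin (difference -1.45, SE 0.44, adjusted p = 0.0615); the null arrays lay below all WT arrays, but the call was missed. The Y-linked Kdm5d was at least 5.72 in males and at most 3.38 in females, as the sex labels have it. Means of 10 keratinocyte marker genes were 11.00 to 11.08 in null skin and 10.90 to 11.10 in WT skin. Of these 10 markers 1 rose (Sfn, by 0.72) and 1 fell (Lor, by 0.35), beside 7.06% and 5.98% of all genes tested. Of 14 skeletal muscle markers 12 fell and 0 rose (5.98% and 7.06% of all genes tested), with summed linear signals of 5055 to 7625 in null and 9671 to 15938 in WT arrays. Of 9 measured fibroblast markers 4 fell and 0 rose (5.98% and 7.06% of all genes tested), with sums of 1259 to 2072 in null and 1977 to 3004 in WT arrays. No marker stood at 0, since RMA values have no zero. In such bulk samples fewer cells of a type and less RNA per cell cannot be told apart.

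Most collagen genes were not called between genotypes, and those that were belonged to 4 of 8 classes (basement membrane, type VI, fibril-associated and transmembrane). Of 41 genes 7 were called (17.1%; 13.0% of all genes tested): 5 rose (12.2%; 7.06% of all genes tested) and 2 fell (4.88%; 5.98% of all genes tested). The risers were Col12a1, Col4a1, Col6a5, Col4a2 and Col23a1, with differences of 0.29 to 0.78. Col4a5 and Col4a6 fell. The median over the 41 genes was 0.07, beside 0.01 over all genes. In 31 of the 34 genes that did not pass the test the difference was smaller than 0.25 in size. Null arrays lay above all WT arrays in 8 of 41 collagen genes (19.5%; 10.1% of all genes) and below all WT arrays in 2 (4.88%; 8.77% of all genes). These shares were not tested against those of all genes, and the results below are those of single genes.

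**Figure D1:**
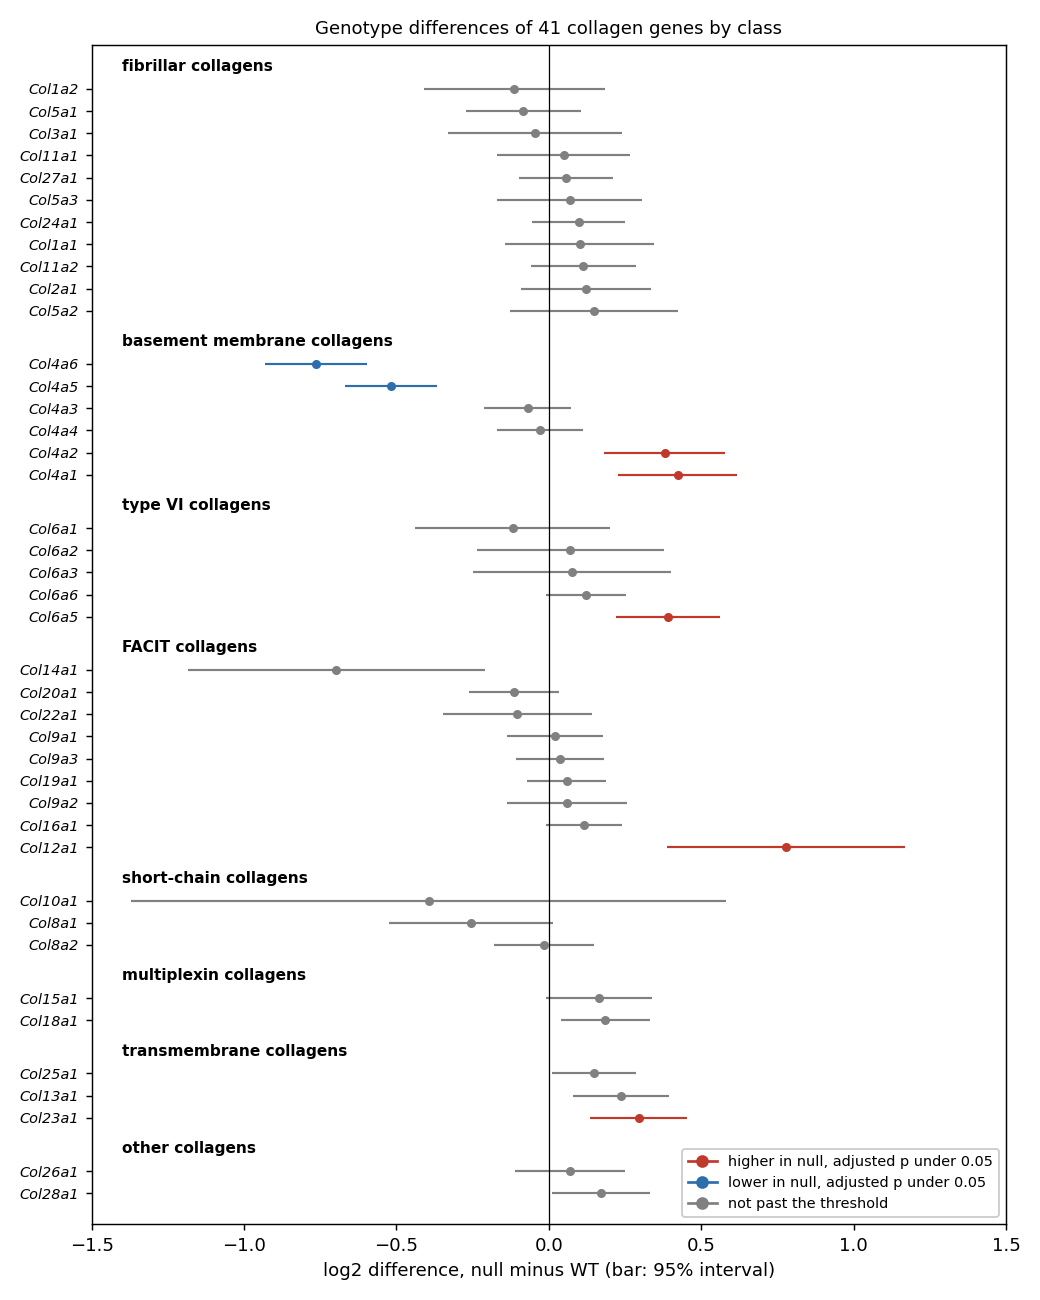
Difference of each of the 41 collagen genes between null and WT skin (x axis, log2, null minus WT), grouped by class down the page. Points are the fitted differences, bars their 95% intervals, red genes higher in null, blue genes lower in null and grey genes not past the threshold. Col4a5 and Col4a6 stand left of 0 at -0.52 and -0.76, Col4a1, Col4a2, Col6a5, Col12a1 and Col23a1 stand right of it, and the 11 fibrillar genes lie between -0.11 and 0.15.

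Type IV collagens split by gene pair. The 6 type IV genes lie in the genome as 3 pairs, each pair side by side and read away from each other. Col4a1 with Col4a2 encodes the network of nearly all basement membranes. Col4a5 with Col4a6 encodes chains of another network that is found in the basement membrane of the epidermis and around smooth muscle, and Col4a3 with Col4a4 encodes partners of the alpha 5 chain in kidney, lung, inner ear and eye. Col4a1 and Col4a2 both rose in null skin, Col4a5 and Col4a6 both fell, and neither Col4a3 nor Col4a4 passed the test.

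The windows around the start sites of both pairs that moved are shown because the genes of each pair are read away from each other. Sequences are RefSeq promoter windows of build GRCm38.p6, 250 bases before to 50 bases after the start site, 5′ to 3′ on the strand of the gene. The Col4a1 window lies at chr8:11312777-11313076 on the minus strand and the Col4a2 window at chr8:11312555-11312854 on the plus strand. Their start sites are 21 bases apart, and by these windows each start site lies within the first bases of the other gene. The first bases of the 2 genes thus overlap, and no gap lies between them. The capitals mark the 78 bases that both windows share, read on opposite strands. The Col4a5 window lies at chrX:141475169-141475468 on the plus strand and the Col4a6 window at chrX:141474027-141474326 on the minus strand. These start sites are 1343 bases apart, the windows share no base, and the capitals mark matches on either strand to the GC box (GGGCGG) or the CCAAT box.
Col4a1: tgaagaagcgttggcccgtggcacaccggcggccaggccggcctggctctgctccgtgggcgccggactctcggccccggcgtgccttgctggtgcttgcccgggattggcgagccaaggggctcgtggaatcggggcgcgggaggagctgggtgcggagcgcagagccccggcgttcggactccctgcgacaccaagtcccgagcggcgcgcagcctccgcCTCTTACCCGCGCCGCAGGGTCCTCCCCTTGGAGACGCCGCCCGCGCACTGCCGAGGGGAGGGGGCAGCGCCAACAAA
Col4a2: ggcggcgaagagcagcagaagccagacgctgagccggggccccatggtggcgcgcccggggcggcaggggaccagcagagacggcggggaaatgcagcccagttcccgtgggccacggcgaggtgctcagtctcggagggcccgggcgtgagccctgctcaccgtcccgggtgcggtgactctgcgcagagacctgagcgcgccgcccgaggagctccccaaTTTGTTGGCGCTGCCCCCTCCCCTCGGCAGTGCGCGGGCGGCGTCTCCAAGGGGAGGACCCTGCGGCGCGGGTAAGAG
Col4a5: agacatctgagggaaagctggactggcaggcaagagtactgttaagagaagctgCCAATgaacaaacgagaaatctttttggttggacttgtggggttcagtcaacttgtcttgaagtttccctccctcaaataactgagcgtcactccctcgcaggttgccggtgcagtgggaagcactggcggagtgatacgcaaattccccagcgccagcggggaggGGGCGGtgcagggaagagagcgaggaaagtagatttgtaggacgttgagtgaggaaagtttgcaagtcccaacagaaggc
Col4a6: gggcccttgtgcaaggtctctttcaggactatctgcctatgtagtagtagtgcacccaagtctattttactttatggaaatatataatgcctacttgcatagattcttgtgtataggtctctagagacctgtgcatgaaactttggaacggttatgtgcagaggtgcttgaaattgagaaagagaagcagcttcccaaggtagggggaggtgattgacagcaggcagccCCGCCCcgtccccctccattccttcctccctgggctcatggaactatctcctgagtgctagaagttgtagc

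The windows of the rising pair are richer in G and C, with 74.0% in Col4a1 and 73.7% in Col4a2, against 52.7% in Col4a5, 48.3% in Col4a6 and a median of 52.7% over all 32851 windows of the table. The motifs searched were these, each on both strands and counted on its own: GGGCGG (the GC box), CCAAT (the CCAAT box), TATAAA (the TATA box) and TGANTCA (the AP-1 site). GGGCGG occurs 1 time in the Col4a1 window, 3 times in Col4a2, 1 time in Col4a5 and 1 time in Col4a6. The Col4a1 match lies in the bases shared with Col4a2 and is the same site as 1 of the 3 there. The G and C shares of these 2 windows likewise rest in part on the same bases. CCAAT occurs 1 time in each of the 4 windows but that of Col4a6, and neither the TATA box nor the AP-1 site occurs in any of the 4. Of the 41 collagen genes 32 have a window in the table, 35 windows in all. GGGCGG is in 60.0% of these 35 windows and in 35.7% of all windows, CCAAT in 28.6% and 37.4%, TATAAA in 11.4% and 13.6%, and TGANTCA in 2.86% and 7.81%. A match describes the letters and is no evidence of a bound site.

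Col4a1 (gene ID 12826, chromosome 8) gave 6.70 and 7.03 in male null, 6.76 and 6.64 in female null, 6.36 and 6.28 in male WT and 6.43 and 6.37 in female WT skin. All null arrays lay above all WT arrays, and male null 2 was the highest. The difference was 0.42 (SE 0.09, adjusted p = 0.0137), a 1.34-fold rise with a 95% interval of 1.17 to 1.53. Its partner Col4a2 (gene ID 12827, chromosome 8) gave 6.85 and 7.13 in male null, 6.85 and 6.76 in female null, 6.61 and 6.38 in male WT and 6.59 and 6.49 in female WT skin. The groups did not overlap here either, and the same null array was highest. Col4a2 rose by 0.38 (SE 0.09, adjusted p = 0.0224). Its call was lost without male null 2, female null 1 or male WT 2 (adjusted p 0.0562 to 0.0646), while Col4a1 was called without any 1 of the 8 arrays.

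Type IV collagen is also made by endothelial cells and pericytes. Of 7 endothelial markers 2 rose and 0 fell, against 7.06% and 5.98% of all genes tested. The risers were Pecam1, an adhesion receptor, by 0.27 and Vwf, the von Willebrand factor, by 0.27. The other 5 were not called, and 2 of the 7 were lower in null skin, the lowest being Tek (-0.20). The list median was 0.27, with sums of 571 to 657 in null and 470 to 631 in WT arrays. Of 7 pericyte and smooth muscle markers 0 rose and 1 fell (7.06% and 5.98% of all genes tested), with sums of 1302 to 1384 in null and 1013 to 1451 in WT arrays. The part of these cells in the rise of Col4a1 and Col4a2 was not tested.

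Col4a6 (gene ID 94216, chromosome X) showed the largest fall among the collagen genes tested. It gave 4.45 and 4.44 in male null, 4.51 and 4.44 in female null, 5.26 and 5.30 in male WT and 5.02 and 5.30 in female WT skin. The null arrays were close together and below all WT arrays, of which female WT 1 was the lowest. The difference was -0.76 (SE 0.07, adjusted p = 0.000392), with a 95% interval of -0.93 to -0.60. The null mean of 4.46 ± 0.03 (SD, n = 4) is at the upper end of the negative control medians, so the fall may be larger than its measured size. Col4a5 (gene ID 12830, chromosome X) gave 4.77 and 4.70 in male null, 4.78 and 4.76 in female null, 5.43 and 5.26 in male WT and 5.15 and 5.25 in female WT skin. All 4 null arrays lay below all WT arrays and above the negative control medians. Col4a5 fell by 0.52 (SE 0.07, adjusted p = 0.00183). Both genes were called without any 1 of the 8 arrays and in males alone. In females alone neither was called, with Col4a5 at -0.43 (adjusted p = 0.112) and Col4a6 at -0.69 (adjusted p = 0.0736).

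The Col4a3 and Col4a4 values overlapped between genotypes. Col4a3 averaged 4.63 ± 0.06 in null and 4.70 ± 0.07 in WT skin (SD, n = 4 each; difference -0.07, 95% interval -0.21 to 0.07, adjusted p = 0.558 by limma). Col4a4 averaged 4.89 ± 0.05 in null and 4.92 ± 0.08 in WT skin (SD, n = 4 each; difference -0.03, 95% interval -0.17 to 0.11, adjusted p = 0.841 by limma). The intervals of this pair hold neither the rise of Col4a1 nor the fall of Col4a5. Both Col4a3 means lie little above the highest negative control median of 4.46, so its difference may be larger than its measured size.

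**Figure D2:**
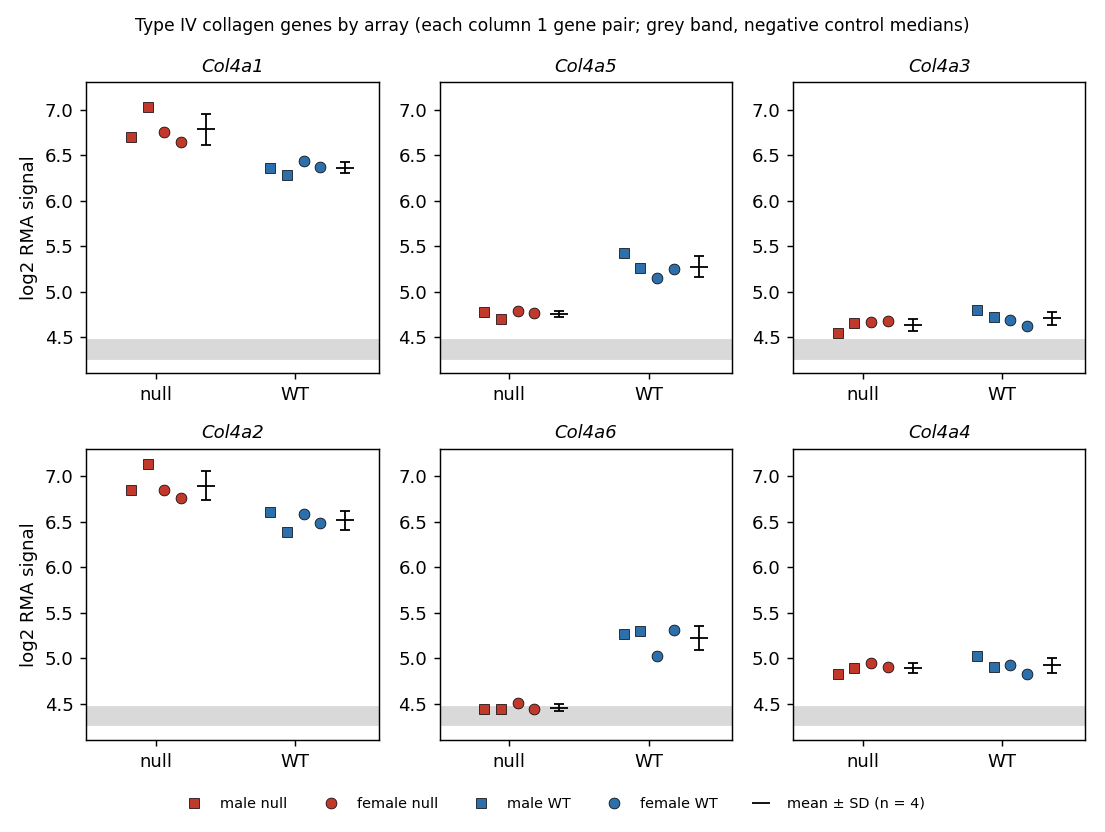
Log2 RMA signal (y axis) of the 6 type IV collagen genes on each array, 1 gene pair per column, null left of WT. Squares are males, circles females, and the bars beside them give the mean and SD of 4 arrays; the grey band spans the negative control medians of 4.26 to 4.46. Null points lie above WT points for Col4a1 and Col4a2, below them for Col4a5 and Col4a6, and among them for Col4a3 and Col4a4.

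Fibrillar collagens, the bulk of the dermal matrix, held no called gene: 0 of 11 passed by limma, and 0 had an unadjusted p under 0.05. Their differences ran from -0.11 for Col1a2 to 0.15 for Col5a2, with a median of 0.07 and adjusted p from 0.405 to 0.875. Col1a1, which encodes the alpha 1 chain of type I collagen, gave 10.03 and 9.81 in male null, 9.58 and 9.60 in female null, 9.82 and 9.48 in male WT and 9.79 and 9.52 in female WT skin. The groups overlapped, and the difference was 0.10 (95% interval -0.14 to 0.35). Col1a2, which encodes the other type I chain, gave 9.44 and 8.96 in male null, 8.90 and 9.02 in female null, 9.36 and 8.96 in male WT and 9.35 and 9.10 in female WT skin. The groups overlapped here as well (-0.11, 95% interval -0.41 to 0.18). Col3a1, of type III collagen, which shares fibrils with type I in skin and vessels, gave 9.63 and 9.04 in male null, 9.14 and 9.09 in female null, 9.48 and 9.29 in male WT and 9.32 and 8.99 in female WT skin. Male null 1 stood above all other arrays, and the rest overlapped (-0.05, 95% interval -0.33 to 0.24). As a ratio, the interval of Col1a1 runs from 0.905 to 1.27 and that of Col1a2 from 0.752 to 1.13, so the data do not show that the levels are alike.

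The type V genes Col5a1, Col5a2 and Col5a3, whose product sets the diameter of type I fibrils, differed by -0.08, 0.15 and 0.07. Col2a1, Col11a1 and Col11a2, known from cartilage, differed by 0.12, 0.05 and 0.11, and the minor fibrillar genes Col24a1 and Col27a1 by 0.10 and 0.06. Every fibrillar gene had a mean above the negative control medians in both genotypes.

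Type VI collagen forms beaded filaments close to cells. Its 3 classical chains did not pass the test. Col6a1 gave 7.94 and 7.51 in male null, 7.60 and 7.48 in female null, 7.84 and 7.58 in male WT and 8.07 and 7.50 in female WT skin (difference -0.12, 95% interval -0.44 to 0.20). Col6a2 gave 7.65 and 7.37 in male null, 7.32 and 7.17 in female null, 7.39 and 7.13 in male WT and 7.63 and 7.08 in female WT skin (0.07, 95% interval -0.24 to 0.38). Col6a3 gave 7.48 and 7.17 in male null, 7.07 and 6.99 in female null, 7.10 and 6.88 in male WT and 7.47 and 6.95 in female WT skin (0.08, 95% interval -0.25 to 0.40). In each of the 3 the genotypes overlapped and male null 1 and female WT 1 were among the highest arrays.

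Col6a5 (gene ID 665033, chromosome 9), which encodes one of the later-found chains that can take the place of the alpha 3 chain, rose. It gave 4.94 and 4.77 in male null, 4.95 and 4.80 in female null, 4.56 and 4.53 in male WT and 4.51 and 4.31 in female WT skin. No array of one genotype reached the other, though all WT values are close to the negative control medians and 1 of the 4 lies within them. The difference was 0.39 (SE 0.08, adjusted p = 0.011), and the call held without any 1 of the 8 arrays. Its neighbour in the family, Col6a6, stood at or near the negative controls, with 4.50 ± 0.05 in null and 4.38 ± 0.08 in WT skin (SD, n = 4 each), and was not called (0.12, adjusted p = 0.227 by limma).

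Male null 1 was the highest null array in all 8 of a set of genes picked after the values were seen (Col1a1, Col1a2, Col3a1, Col5a1, Col5a2, Col6a1, Col6a2 and Col6a3). Among the WT arrays male WT 1 was highest in 4 of these 8 genes and female WT 1 in the other 4, while male WT 2 was lowest in 4 and female WT 2 in 4. Male null 1 also had the highest null means of the fibroblast (7.26), skeletal muscle (8.61) and tendon (6.37) marker lists, beside 6.87 to 7.05, 8.06 to 8.26 and 5.58 to 5.82 in the other 3 null arrays.

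Fibril-associated collagens with interrupted helices, which sit on the surface of fibrils, held the largest rise and the largest fall that missed the threshold. Col12a1 (gene ID 12816, chromosome 9), found in dense connective tissue and on type I fibrils, gave 7.83 and 8.03 in male null, 8.40 and 7.82 in female null, 7.18 and 7.26 in male WT and 6.87 and 7.66 in female WT skin. All null arrays lay above all WT arrays, of which female WT 2 came nearest. Col12a1 rose by 0.78 (SE 0.17, adjusted p = 0.0191), 1.72-fold with a 95% interval of 1.31 to 2.25. The call was lost without male null 2, female null 1 or male WT 1 (difference 0.65 to 0.77, adjusted p 0.0563 to 0.0638). With the mean of the muscle markers as a further covariate the difference was 0.03 (SE 0.19).

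Col14a1, a relative of Col12a1 that regulates fibril growth, moved the other way in 3 of the 4 null mice. It gave 6.64 and 5.46 in male null, 5.65 and 6.03 in female null, 6.57 and 6.67 in male WT and 6.64 and 6.68 in female WT skin. WT arrays were close together, 3 null arrays lay well below them and male null 1 lay among them. Fibroblast marker means were 6.87 to 7.26 in null and 7.21 to 7.68 in WT arrays, highest among the null arrays in male null 1, and their part in this result was not tested. The difference of -0.70 (SE 0.22) missed the threshold (adjusted p = 0.0661). It passed in 3 of 14 other settings: with same-numbered mice of a sex as pairs, with weighted arrays and without the sex term (adjusted p = 0.045, 0.0202 and 0.0498). Without male null 1 it passed as well (-0.96, adjusted p = 0.00208). The other 7 genes of this class differed by -0.11 to 0.11, none past the threshold. Among them were Col9a1, Col9a2 and Col9a3 of cartilage type IX collagen (0.02, 0.06 and 0.04), Col16a1 (0.11), Col20a1 (-0.11), Col22a1 of tissue junctions (-0.10) and Col19a1 (0.06), whose null and WT means both lay under the medians of the negative controls.

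**Figure D3:**
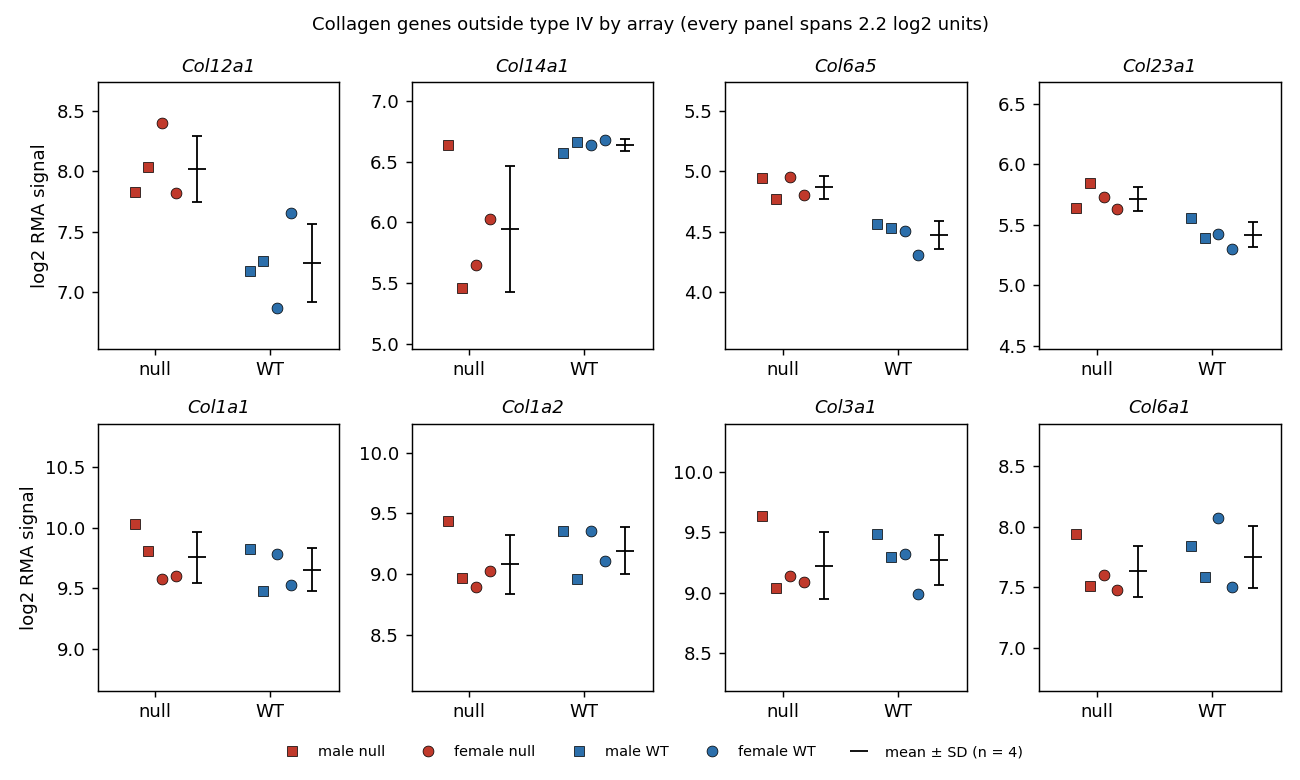
Log2 RMA signal (y axis) of 8 collagen genes outside type IV on each array, null left of WT, with every panel spanning 2.2 units. Squares are males, circles females, and the bars give the mean and SD of 4 arrays. Col12a1, Col6a5 and Col23a1 separate the genotypes, Col14a1 has 1 null array (male null 1) among the WT arrays, and Col1a1, Col1a2, Col3a1 and Col6a1 overlap.

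Transmembrane collagens are single-pass surface proteins whose outer part can be shed. Col23a1 (gene ID 237759, chromosome 11) gave 5.64 and 5.85 in male null, 5.73 and 5.64 in female null, 5.55 and 5.39 in male WT and 5.42 and 5.30 in female WT skin. The groups did not overlap, and the rise was 0.29 (SE 0.07, adjusted p = 0.026), 1.23-fold. The call was lost when male null 2, either female null array, male WT 2 or female WT 2 was left out (adjusted p 0.0539 to 0.0912). Col13a1, known from the neuromuscular junction and cell adhesion sites, gave 5.51 ± 0.04 in null and 5.28 ± 0.12 in WT skin (SD, n = 4 each), with all null arrays above all WT arrays. Its difference of 0.24 missed the threshold (adjusted p = 0.055 by limma). It passed in 8 of 14 other settings of the fit, among them same-numbered mice as pairs (adjusted p = 0.0349). Of the 8 fits without 1 array, 1 called it. Col25a1, known from nervous tissue, differed by 0.15 (adjusted p = 0.161), and its means of 4.47 in null and 4.33 in WT skin lie at or within the negative control medians.

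The multiplexins Col15a1 and Col18a1, basement membrane collagens whose ends release restin and endostatin, differed by 0.16 (adjusted p = 0.213) and 0.18 (adjusted p = 0.101). All null arrays lay above all WT arrays for Col15a1. Col28a1, known from peripheral nerve, differed by 0.17 and Col26a1 by 0.07, and neither was called. Without male null 1, Col18a1 and Col28a1 passed the test (adjusted p = 0.0377 and 0.0381 by limma). With weighted arrays Col18a1 passed as well (adjusted p = 0.0441).

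Of the short-chain collagens Col8a1 and Col8a2, known from vessels and the cornea, differed by -0.26 and -0.02. With same-numbered mice as pairs Col8a1 passed the test (adjusted p = 0.0322), and the count of collagen genes that fell was then 4 in place of 2. Col10a1, made by hypertrophic chondrocytes where cartilage turns to bone, varied more than any other collagen gene measured here. It gave 5.70 and 4.36 in male null, 6.58 and 5.20 in female null, 4.83 and 4.68 in male WT and 7.51 and 6.39 in female WT skin. Both genotypes covered most of the range, with the highest value in female WT 1, and the difference was -0.39 (SE 0.43, adjusted p = 0.645).

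Markers of bone differed between the same arrays. Means of 6 bone markers were 5.34 and 5.09 in male null, 5.44 and 5.22 in female null, 4.86 and 4.63 in male WT and 6.12 and 5.65 in female WT skin, with summed signals of 347 to 421 in null and 208 to 686 in WT arrays. Of the 6 bone and 9 cartilage markers 0 were called in either direction by limma, beside 13.0% of all genes tested. Several stood at or under the highest negative control median, which limits both lists. These were 3 bone markers by their null mean, 2 by their WT mean, and 4 cartilage markers by both means. Female WT 1 was the highest array for bone markers and Col10a1 alike. The part of bone or growth cartilage in the sampled paws in these values was not tested.

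**Figure D4:**
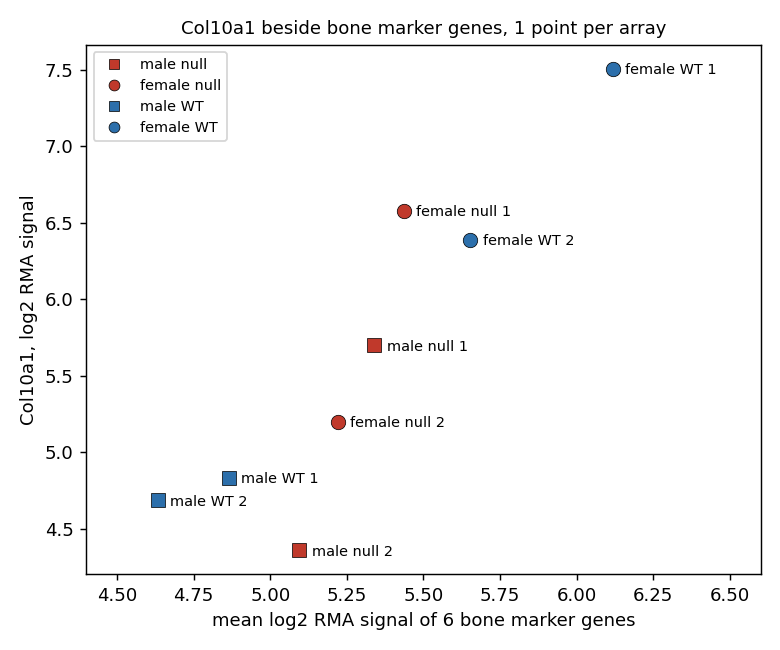
Col10a1 signal (y axis, log2 RMA) against the mean signal of 6 bone marker genes (x axis, log2 RMA), 1 point per array, red null and blue WT, squares males and circles females. Female WT 1 is highest on both axes (7.51 and 6.12), and male WT 2 (4.68 and 4.63) and male null 2 (4.36 and 5.09) are low on Col10a1.

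Skeletal muscle markers moved with genotype, and sex and the muscle marker mean together account for 74.8% of the genotype term, so a fit with both has little left to estimate. In that fit Col4a6 was the collagen gene still called (-1.02, SE 0.11). The other 6 called genes were no longer past the threshold, with Col4a1 at 0.44 (SE 0.17), Col4a2 at 0.47 (SE 0.17), Col4a5 at -0.59 (SE 0.14), Col6a5 at 0.51 (SE 0.15), Col23a1 at 0.31 (SE 0.14) and Col12a1 at 0.03. Several genes uncalled in both fits were higher with the muscle covariate than without it. Col1a1 was at 0.54, Col1a2 at 0.41 and Col5a2 at 0.65, beside 0.10, -0.11 and 0.15 without it. Col6a1 was at 0.53, Col6a2 at 0.68 and Col6a3 at 0.73, beside -0.12, 0.07 and 0.08. Adjusted p for these genes with the muscle covariate was 0.0557 to 0.327 by limma. The median over the 41 genes was 0.24 in this fit, beside 0.01 over all genes, and 34 of the 41 differences were above 0. The part of muscle in the sampled skin in these results was not tested otherwise.

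The genotype effect on collagen genes was not shown to differ between the sexes. For 0 of 41 the difference between the male and the female effect was called by limma, and 0 had an unadjusted p under 0.05; over all genes 2 were called (0.00651%) and 1307 had an unadjusted p under 0.05. All 7 called collagen genes had the same sign in both sexes. Col4a6, for example, differed by -0.84 in males and -0.69 in females, Col4a1 by 0.54 and 0.30, and Col12a1 by 0.71 and 0.84. Each sex has 2 mice of each genotype, so only large differences between the sexes could be found.

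Genes that act on collagens were read from 5 lists, of whose 68 members 62 were measured. Of these 62, 4 rose and 14 fell (7.06% and 5.98% of all genes tested), and the median was -0.10. Among 19 measured enzymes and chaperones that modify and fold the chains in the endoplasmic reticulum 2 rose and 1 fell. These are 10.5% and 5.26%, near the 7.06% and 5.98% of all genes tested. P4hb, the disulfide isomerase that is also the beta subunit of prolyl 4-hydroxylase, gave 9.65 and 9.75 in male null, 9.59 and 9.52 in female null, 9.06 and 9.14 in male WT and 9.14 and 9.06 in female WT skin. The groups stood well apart, with a rise of 0.53 (SE 0.06, adjusted p = 0.000843). P4ha3, a catalytic alpha subunit of the same enzyme, rose by 0.54 (adjusted p = 0.00534), while P4ha1 and P4ha2, the other alpha subunits, differed by -0.07 and 0.11, not past the threshold. P3h4, a partner of the lysyl and prolyl 3-hydroxylases, fell by 0.50 (adjusted p = 0.00203). Serpinh1, the collagen chaperone, differed by -0.04 (adjusted p = 0.71).

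Of 11 measured genes of procollagen processing and cross-linking 0 rose and 3 fell (7.06% and 5.98% of all genes tested). One of the 3, Adamts3, had 0 of 8 arrays above the highest negative control median, with means of 4.06 in null and 4.27 in WT skin. Pcolce2 and Pcolce, which enhance removal of the C-terminal propeptide, both fell. The difference was -1.26 for Pcolce2 (SE 0.30, adjusted p = 0.0262) and -0.55 for Pcolce (SE 0.13, adjusted p = 0.0242). Pcolce2 gave 6.90 and 5.43 in male null, 5.92 and 6.09 in female null, 7.51 and 7.06 in male WT and 7.85 and 6.97 in female WT skin, and the null array nearest to WT was again male null 1. Leaving out male null 2, either female null array or male WT 1 ended both calls (adjusted p 0.0601 to 0.0829), and a robust prior ended that of Pcolce2 (adjusted p = 0.0918). With the muscle marker mean as a covariate neither fell (0.02 and 0.07, uncalled).

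Of 9 measured collagen receptors 0 rose and 3 fell (7.06% and 5.98% of all genes tested). Itga2, the alpha subunit of the collagen-binding integrin of keratinocytes, fell by 0.39 (SE 0.06, adjusted p = 0.00376), and its values of 6.38 to 6.46 in null skin did not reach the 6.72 to 6.92 of WT skin. Ddr2, a receptor tyrosine kinase for fibrillar collagens, fell by 0.62 (SE 0.17, adjusted p = 0.0458). That call was lost without any 1 array but male null 1 (adjusted p 0.0651 to 0.139). It was also lost with repeated quantile normalization, median centring, all probe sets or a robust prior (adjusted p 0.0512 to 0.0792), and in either sex alone. With the muscle covariate the Ddr2 difference turned to 0.15, uncalled. Of 7 genes of collagen breakdown 1 rose and 0 fell (7.06% and 5.98% of all genes tested). Mmp13, a collagenase, gave 5.40 and 5.57 in male null, 5.69 and 5.63 in female null, 3.72 and 3.71 in male WT and 5.48 and 4.90 in female WT skin. Female WT 1 lay between the null arrays, male WT arrays were under the negative control medians, and the rise was 1.12 (SE 0.24, adjusted p = 0.0169). Without male WT 1 or male null 2 it was 1.00 and 0.96 (adjusted p = 0.0568 and 0.0554), and without the sex term its adjusted p was 0.0581. It was 0.48 in females alone (adjusted p = 0.313) and 1.89 with the muscle covariate (adjusted p = 0.0643), not past the threshold in either.

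Of 16 measured genes of the TGF-beta pathway, a main inducer of matrix genes, 1 rose and 7 fell (7.06% and 5.98% of all genes tested). Ltbp4, which binds latent TGF-beta to the matrix, fell by 0.76 (SE 0.11, adjusted p = 0.00312), and the co-receptor gene Tgfbr3 by 0.63 (SE 0.07, adjusted p = 0.000994). With the muscle covariate neither was called, with Ltbp4 at -0.26 (adjusted p = 0.333) and Tgfbr3 at -0.40 (adjusted p = 0.15). The receptor gene Tgfbr1 rose by 0.24 (SE 0.06, adjusted p = 0.0393). Its call was lost with same-numbered mice as pairs (adjusted p = 0.0532) and without any 1 array but female WT 1 or female WT 2 (adjusted p 0.0589 to 0.121). It was also lost without the sex term, with median centring or over all probe sets (adjusted p 0.0604 to 0.0746), in either sex alone and with the muscle covariate.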

How the data were processed

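Total RNA from forepaw skin of 8 mice was hybridised to 8 Affymetrix arrays. The authors deposited log2 signals of each probe set on each array; the submitters' processing notes name Partek and RMA, and versions, RMA settings and build are not stated there. Deposited were 72688 probe sets, and 6732 controls among them were dropped; 31258 of the rest were tied to 1 gene through the platform annotation and RefSeq, and for 442 genes with several probe sets the one with the highest mean was kept, giving 30701 genes. No collagen gene had several. The labels give separate mice of each sex and genotype.

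Differences were fitted with limma 3.58.1 (R 4.3.3; lmFit and eBayes with an intensity trend, sex as covariate, 5 residual degrees of freedom), adjusted by Benjamini-Hochberg over all genes and called under 0.05. The difference between the sexes was fitted on 4 group means. Intervals are at 95%. The fit was tested on simulated data with independent normal noise for each gene and 40 genes for each added difference. It called 75% of the genes changed by 0.5 and 77.5% of those changed by -0.5, with 8 false calls. Differences smaller than 0.5 in size were not simulated. Tables and plots used Python 3.11.15, numpy 2.4.6, pandas 2.3.3 and matplotlib 3.10.9. The sample titles number the mice but do not pair them across genotypes. Deviations of same-numbered mice from their group means correlated over genes at 0.316 in males and 0.115 in females. With 2 mice per group, renumbering a group turns the sign of such a correlation, so these values do not show a pairing. The fit with same-numbered mice of a sex as a block is given as an alternative where it changes a call.

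The collagen members, the pathway and marker lists and the tests were chosen with earlier results of these data known. Genes given in full are the called collagen genes, 8 main chains of types I, III, IV and VI, and from each pathway list the 2 largest called rises and falls; the others are given by difference or range. P4ha1, P4ha2, Serpinh1, Col10a1, Col13a1 and Col14a1 were described further after their values were seen. Protein sequences were not used here.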

Additional observations from a re-analysis of the deposited data

Results flagged for a closer look

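Single arrays stood far from the other 3 of their genotype in 8 of 104 groups of 4 arrays (52 genes, 2 genotypes), by Dixon's test at the 95% level; chance alone gives about 1 in 20. Male null 1 was such an array for 4 genes. Its Col4a3 value of 4.54 was below 4.66 to 4.67 in the other null arrays, and its Col3a1 value of 9.63 was above 9.04 to 9.14. Its P4ha3 value of 5.37 was below 5.48 to 5.50, and its P3h4 value of 7.11 was above 6.85 to 6.88. For Col4a6, female null 1 at 4.51 was above the other null arrays at 4.44 to 4.45, and female WT 1 at 5.02 was below the other WT arrays at 5.26 to 5.30. Col5a3 in female null 2 was 6.02, below 6.14 to 6.16 in the other null arrays. Col28a1 in male WT 1 was 5.08, above 4.97 in the other WT arrays.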

How the results depend on the processing

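Over 52 named genes and 22 alternative settings, the 2-fold minimum not among them, 1135 values were recomputed. Of these, 1029 stayed on their side of the threshold, and 45 of the 1029, uncalled in both fits, changed sign. Another 86 lost the call and 17 gained it, all without a change of sign. Called differences changed sign 3 times, each with the muscle marker mean as covariate (Pcolce2 0.018, Pcolce 0.066, Ddr2 0.15). None of these 3 was called there, and the cause was not tested. Collagen genes called higher numbered 5, and 2 to 7 without 1 array, 1 in males only, and 0 in females only, with the muscle covariate or with a 2-fold minimum. Collagen genes called lower numbered 2, and 2 to 3 without 1 array, 4 with the replicate block, 1 with the muscle covariate, and 0 in females only or with a 2-fold minimum. Pathway genes called higher numbered 4, and 2 to 5 without 1 array, 2 without the sex term, 1 with a 2-fold minimum, and 0 in females only or with the muscle covariate. Pathway genes called lower numbered 14, and 5 to 15 without 1 array, 9 over all probe sets, 1 in males only, in females only and with a 2-fold minimum, and 0 with the muscle covariate. Over all genes 2168 were higher, and 1205 to 2288 without 1 array, 801 in males only, 230 in females only, 207 with the muscle covariate and 191 with a 2-fold minimum; 1837 were lower, and 840 to 1865, 388, 142, 85 and 69 in the same order. The fits of 1 sex rest on 2 mice of each genotype. Beyond the calls given above with pairs as a block (Col14a1, Col8a1, Col13a1 and Tgfbr1), the block changed no call among the named genes. Signals near the negative controls limit Adamts3, Col4a3, Col4a6, Col6a5, Col6a6, Col19a1, Col25a1 and, in WT skin, Mmp13.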
